A study of Mus musculus with 6 samples.

Results

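Collagens are the proteins from which the fibres and sheets of the extracellular matrix are built, and each collagen chain is encoded by its own gene. The collagen chain genes examined here were the 44 symbols of the form Col, number, a, number among the 23997 gene symbols listed for each library, matched by symbol alone. They were sorted by the structure of their products into 11 fibrillar genes, 6 basement membrane genes, 9 FACIT genes (fibril-associated collagens, which sit on the surface of fibrils), 6 beaded filament genes of type VI collagen, 3 short-chain network genes, 4 transmembrane genes, 2 multiplexin genes, 1 anchoring fibril gene and 2 others. A further group of 8 cartilage types cut across the fibrillar, FACIT and short-chain genes.

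RNAseq values were deposited for the gastrocnemius, the large calf muscle, of 3 *HrasG12V* mice (2276, 2278 and 2279) and 3 wild-type (WT) littermates (2277, 2280 and 2281). All mice were 21 days old and untreated, and each gave 1 library. The *HrasG12V* mice, a model of Costello syndrome, were Caggs-Cre+/HrasG12V/+ and carried 1 activated *Hras* allele. The WT mice were Caggs-Cre-/HrasflG12V/+ and are labelled *Hras*+/+, so they held the same allele in its inactive floxed form and lacked Cre. Cre was driven by the CAGGS promoter, which is active in most cell types, and the allele was therefore not limited to muscle fibres. The sex, litter and batch of the mice are not given.

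Collagen chains wind in sets into a helix before they leave the cell, and the helices then assemble into fibrils, networks or filaments. In skeletal muscle, fibrillar collagens form the endomysium, perimysium and the attachment to tendon, type IV collagen forms the sheet around each myofiber and capillary, and type VI collagen links that sheet to the surrounding fibrils. Most of these chains are made by fibroblasts and tenocytes between and at the ends of the fibres rather than by the fibres themselves.

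Values were FPKM, the fragments per kilobase of transcript scaled to library size, so levels can be set side by side between genes. The FPKM totals ran from 413020 to 814013 per library while the median of the genes tested stayed between 6.39 and 6.64, and the reads behind each value are unknown, since the methods state only a nominal depth for every sample. In the same order of mice as above, *Hras* itself was listed with 58.8, 28.9 and 16.0 FPKM in the mutants and with 36.8, 36.0 and 51.8 FPKM in their WT littermates. FPKM per gene cannot show which allele was transcribed. From the sequence reads, the paper reports WT and mutant *Hras* transcripts in roughly equal amounts in *HrasG12V* muscle. The muscle genes *Mylpf* (10760 to 36114 FPKM) and *Ttn* (151 to 239 FPKM) were high in every library. *Acta1* and *Myh4*, which fast muscle expresses strongly, were listed at 0 in all 6 libraries, and *Ckm* in 5 of 6. In bulk muscle, fewer cells of a type and less RNA per cell cannot be told apart.

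To ask how collagen expression differed between genotypes, log2(FPKM + 0.1) was compared with limma in the 13359 genes whose mean FPKM over the 6 libraries was at least 0.5. Of the 44 collagen genes 35 passed that filter. Of these 35, 26 had a lower and 9 a higher mean log2 value in *HrasG12V* muscle, against 7129 lower and 6230 higher among all genes tested. Their median log2 fold change was -0.43, and that of all genes tested was -0.03. With an unadjusted limma p below 0.05, 7 collagen genes were lower (20.0%) against 4.99% of all genes tested, and 3 were higher (8.57%) against 5.18%. *Col19a1*, 1 of these 3, reached the minimum mean only through its *HrasG12V* values, so nothing is read from the higher share. Without mouse 2276 the share of lower genes was 17.1% of the collagens and 17.4% of all genes. No collagen gene passed the Benjamini-Hochberg adjustment over all genes, which 0.0599% of all genes passed. The lowest adjusted limma p was 0.317, for *Col23a1*. With n = 3 mice per genotype, every *HrasG12V* mouse lay below every WT mouse for 9 collagen genes (10.4% of all genes tested) and above every WT mouse for 3 (8.11% of all genes tested). The colour map of 35 collagen genes shows these values mouse by mouse.

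**Figure D1:**
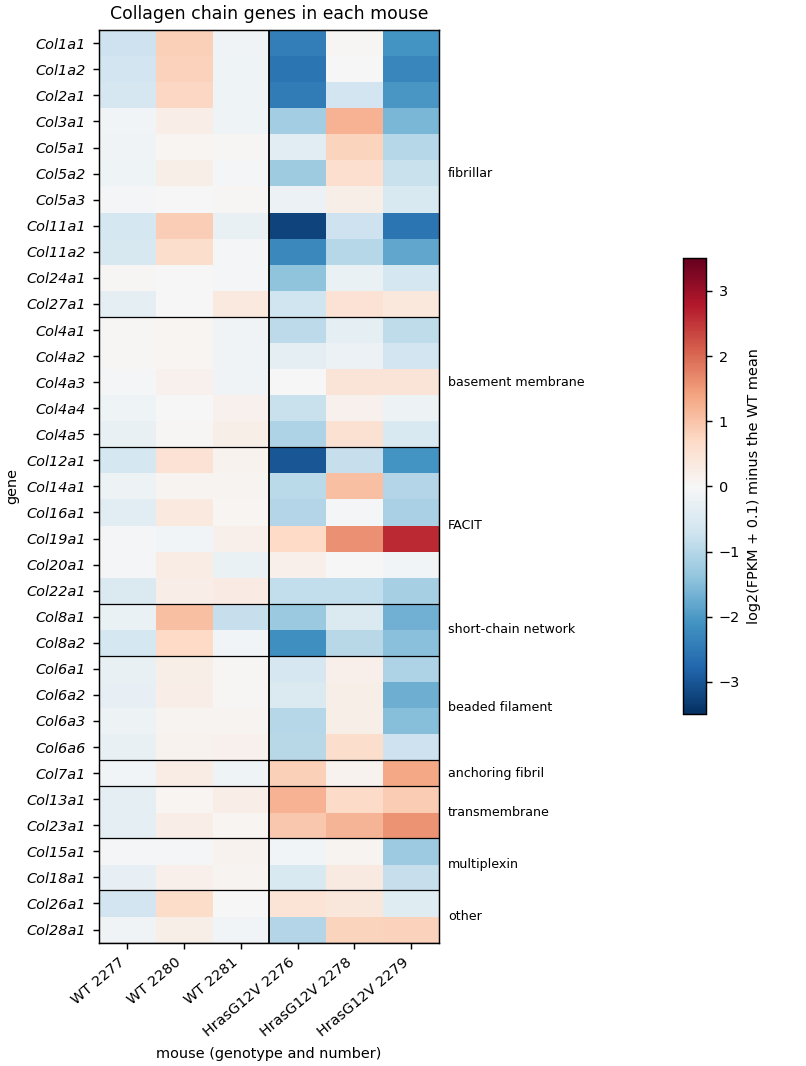
Each row is 1 of the 35 collagen genes tested, grouped by structural class, and each column 1 mouse, and the colour gives log2(FPKM + 0.1) minus the mean of the 3 WT mice for that gene. Most rows are blue in *HrasG12V* mice 2276 and 2279 and pale or red in 2278, while *Col13a1*, *Col19a1* and *Col23a1* are red in all 3.

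The genes of the major fibrils were the most abundant collagens and varied widely among *HrasG12V* mice, and *Col1a1* and *Col1a2* also did so among WT mice. *Col1a1*, the main chain of the type I fibrils of tendon, bone and perimysium, was at 688, 2039.7 and 1049 FPKM in WT mice and at 211, 1175 and 266 FPKM in *HrasG12V* mice. *Col1a2*, its partner chain, was at 590.2, 1650.3 and 848 FPKM in WT mice and at 158, 952 and 191 FPKM in *HrasG12V* mice. For both genes *HrasG12V* mice 2276 and 2279 lay below every WT mouse and 2278 lay among them. The log2 fold changes were -1.49 for *Col1a1* (SE, standard error of the difference, 0.75, limma unadjusted p = 0.0886) and -1.61 for *Col1a2* (SE 0.76, limma unadjusted p = 0.0752). *Col3a1*, the chain of the thin type III fibrils of soft tissue, was at 373, 473 and 361 FPKM in WT mice and at 171, 919.6 and 132 FPKM in *HrasG12V* mice. Here mouse 2278 was the highest of all 6 and the other *HrasG12V* mice the lowest, so that the group means of 402 ± 61.4 and 408 ± 444 FPKM (SD, n = 3 each) were alike although no *HrasG12V* value lay within the WT range. Together these 3 genes held 71.4% to 83.7% of the summed collagen FPKM in WT and 54.1% to 80.5% in *HrasG12V* mice.

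The type V chains, which set the diameter of type I fibrils, also had mouse 2278 as the highest of the 3 mutants, at lower levels. *Col5a1* was at 26.9 to 30.9 FPKM in WT and at 22.8, 50.5 and 14.5 FPKM in *HrasG12V* mice 2276, 2278 and 2279, and *Col5a2* and *Col5a3* also had 2278 above and the other mutants below the WT range. Their log2 fold changes were -0.20, -0.48 and -0.18, with limma unadjusted p-values of 0.668, 0.332 and 0.459.

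The minor fibrillar chains *Col11a1*, *Col11a2*, *Col2a1* and *Col24a1* were lower in every *HrasG12V* mouse. *Col11a1*, a chain of the type XI fibrils found within cartilage fibrils and in developing tendon, was at 5.77, 16.4 and 7.51 FPKM in WT mice and at 0.856, 5.36 and 1.44 FPKM in *HrasG12V* mice. The highest mutant, 2278, was just below the lowest WT mouse, and the log2 fold change of -2.18 (SE 0.69, limma unadjusted p = 0.0176, adjusted p = 0.435) was the most negative of the 35. With 1 mouse left out it ran from -2.90 without 2278 to -1.64 without 2276, and the unadjusted limma p was above 0.05 in 3 of the 6 sets, with a highest value of 0.0731. *Col11a2*, its partner chain (chr17:34039437-34066685, plus strand of GRCm38 in GENCODE vM21), was at 10.7, 24.3 and 15.3 FPKM in WT mice and at 3.22, 7.94 and 4.45 FPKM in *HrasG12V* mice. Its genotypes were clearly apart, with a log2 fold change of -1.69 (SE 0.41, limma unadjusted p = 0.00532). *Col2a1*, the main fibrillar chain of cartilage, was at 3.32, 8.36 and 4.48 FPKM in WT mice and at 0.836, 3.09 and 1.14 FPKM in *HrasG12V* mice. These groups also did not overlap, though 2278 came close to WT mouse 2277, and the log2 fold change was -1.72 (SE 0.53, limma unadjusted p = 0.0156). *Col24a1*, a fibrillar chain known from developing bone and cornea, was at 2.09, 2.04 and 1.94 FPKM in WT mice and at 0.696, 1.72 and 1.28 FPKM in *HrasG12V* mice. Its highest WT value was 1.08 times the lowest, every mutant lay below them, and the log2 fold change of -0.75 came with an SE of 0.32 (limma unadjusted p = 0.0559). *Col27a1*, a cartilage chain, was the 1 fibrillar gene with a higher mean log2 value, with a log2 fold change of 0.07.

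**Figure D2:**
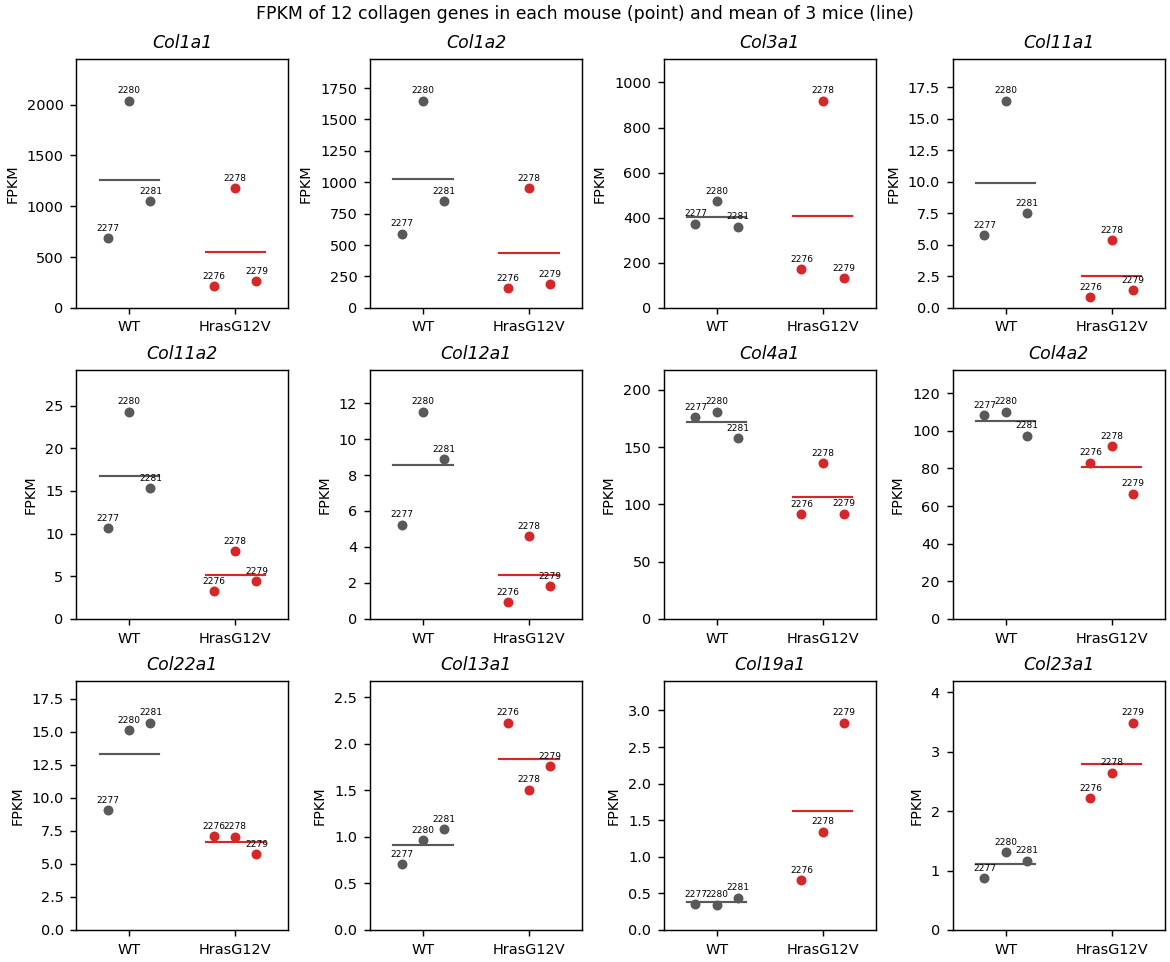
Each panel gives the FPKM of 1 gene on a linear axis from 0, each point is 1 mouse with its number, and the line is the mean of 3 mice. *Col1a1*, *Col1a2* and *Col3a1* have *HrasG12V* mouse 2278 among or above the WT mice, whereas the other 9 genes have all 3 *HrasG12V* mice on 1 side of the WT mice. The panels are a selection, since 12 of the 35 collagen genes tested had genotypes that did not overlap, against 18.5% of all genes tested.

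The type IV chains *Col4a1* and *Col4a2*, which form the main network of every basement membrane, varied little across WT mice and were lower in all 3 mutants. *Col4a1* was at 176, 181 and 158 FPKM in WT mice and at 91.5, 136 and 91.8 FPKM in *HrasG12V* mice, a log2 fold change of -0.71 (SE 0.24, limma unadjusted p = 0.0234). *Col4a2* was at 108, 110.3 and 97.5 FPKM in WT mice and at 83.1, 92.0 and 66.6 FPKM in *HrasG12V* mice, a log2 fold change of -0.40 (SE 0.21, limma unadjusted p = 0.103). Neither pair of groups overlapped, and the gap was wider for *Col4a1*. When the libraries were scaled to the same total or by quantiles the *Col4a1* difference was no longer past an unadjusted p of 0.05 (limma p up to 0.105). The chains of specialised basement membranes were low in this muscle. *Col4a3*, *Col4a4* and *Col4a5*, the chains of the kidney filter, had mean log2 differences of 0.29, -0.27 and -0.36 with overlapping genotypes, and *Col4a6* was below the filter.

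*Col4a1* (chr8:11198423-11312826, minus strand) and *Col4a2* (chr8:11312805-11449287, plus strand) are read in opposite directions from 1 shared promoter, and their annotated starts overlap by 22 bases in RefSeq on GRCm38. The 30 bases at chr8:11312801-11312830, given on the plus strand, are shown because both genes begin there, and the capitals mark the bases that lie in both transcripts.
Col4a1 and Col4a2: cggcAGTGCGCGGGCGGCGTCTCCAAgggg

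Of the 6 FACIT genes tested, 4 had a lower and 2 a higher mean log2 value in *HrasG12V* muscle. *Col12a1*, whose product coats the fibrils of tendon, fascia and perimysium, was at 5.24, 11.5 and 8.90 FPKM in WT mice and at 0.935, 4.59 and 1.83 FPKM in *HrasG12V* mice. All mutants were below the WT range, with a log2 fold change of -1.97 (SE 0.57, limma unadjusted p = 0.0117). *Col22a1*, which marks the junction of muscle and tendon, was at 9.06, 15.1 and 15.7 FPKM in WT mice and at 7.09, 7.07 and 5.75 FPKM in *HrasG12V* mice. The mutant values were close together and 2278 did not stand apart, and the log2 fold change was -0.96 (SE 0.25, limma unadjusted p = 0.00681, adjusted p = 0.382). *Col19a1*, a rare chain at basement membrane zones that developing muscle expresses, was at 0.352, 0.346 and 0.441 FPKM in WT mice and at 0.682, 1.34 and 2.83 FPKM in *HrasG12V* mice. Every mutant was above the WT mice, with a log2 fold change of 1.64 (SE 0.52, limma unadjusted p = 0.0167), but the gene passed the filter only through its *HrasG12V* values. *Col14a1*, a FACIT of the interstitial matrix, was at 6.92, 8.36 and 8.31 FPKM in WT mice and at 4.04, 16.5 and 3.77 FPKM in *HrasG12V* mice. Mouse 2278 was above and the other mutants below the WT range, and the log2 fold change was -0.30 (limma unadjusted p = 0.601). *Col16a1* and *Col20a1* had overlapping genotypes, with log2 fold changes of -0.74 and 0.03.

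Type VI collagen, whose loss causes congenital muscular dystrophy, was low in 2276 and 2279 but not in 2278. *Col6a1* was at 71.0, 99.6 and 88.9 FPKM in WT mice and at 56.5, 96.2 and 40.3 FPKM in *HrasG12V* mice. *Col6a2* was at 60.0, 85.0 and 75.3 FPKM in WT mice and at 51.3, 84.5 and 22.2 FPKM in *HrasG12V* mice. *Col6a3* was at 36.3, 44.7 and 43.8 FPKM in WT mice and at 20.8, 47.9 and 14.6 FPKM in *HrasG12V* mice. In each of the 3 genes mouse 2279 was the lowest of all 6 and 2278 lay within or above the WT range. Their log2 fold changes were -0.51, -0.66 and -0.76, with limma unadjusted p-values of 0.193, 0.212 and 0.122.

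Of the short-chain collagens, which form lattices in vessels and in the eye, *Col8a2* was at 2.17, 5.54 and 3.12 FPKM in WT mice and at 0.684, 1.66 and 1.14 FPKM in *HrasG12V* mice. The groups did not overlap, and the log2 fold change was -1.53 (SE 0.43, limma unadjusted p = 0.00988). Its partner *Col8a1* was at 4.98, 12.1 and 3.27 FPKM in WT mice and at 2.31, 4.08 and 1.75 FPKM in *HrasG12V* mice. WT mouse 2280 was far above the rest, the genotypes overlapped, and the log2 fold change was -1.16 (SE 0.52, limma unadjusted p = 0.0630).

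The transmembrane collagens, which are held in the cell membrane and shed into the matrix, had 2 genes tested, and both were higher. *Col23a1* was at 0.871, 1.31 and 1.17 FPKM in WT mice and at 2.22, 2.65 and 3.49 FPKM in *HrasG12V* mice. The lowest mutant was well above the highest WT mouse, and the log2 fold change was 1.24 (SE 0.25, limma unadjusted p = 0.00199). *Col13a1*, which muscle fibres place at the neuromuscular junction, was at 0.706, 0.963 and 1.08 FPKM in WT mice and at 2.23, 1.51 and 1.76 FPKM in *HrasG12V* mice. Mouse 2276 was the highest, the groups did not overlap, and the log2 fold change was 0.93 (SE 0.26, limma unadjusted p = 0.0105). Under quantile normalization the limma unadjusted p of *Col13a1* was 0.0675. *Col25a1*, a transmembrane chain that developing muscle needs for its innervation, was below the filter and went the other way, at 0.107 to 0.202 FPKM in WT and at 0.0238 to 0.0892 FPKM in *HrasG12V* mice. *Col7a1*, the chain of the anchoring fibrils of skin, was at 1.89, 2.46 and 1.83 FPKM in WT mice and at 3.75, 2.23 and 5.34 FPKM in *HrasG12V* mice. Only 2278 lay within the WT range, and the log2 fold change was 0.77 (SE 0.33, limma unadjusted p = 0.0517).

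For 4 of the 6 genes that kept an unadjusted p below 0.05 whichever mouse was left out, the 250 bases before the RefSeq start were read from GRCm38.p6 to show what lies in front of genes that were lower and genes that were higher. *Col8a2* (chr4:126286544-126286793) and *Col11a2* (chr17:34038888-34039137), which were lower, and *Col13a1* (chr10:61979109-61979358, minus strand) and *Col23a1* (chr11:51289670-51289919), which were higher, are printed in the direction of transcription. Capitals mark the TATA box letters TATAAA, the CAAT box letters CCAAT and the GC box letters GGGCGG, each on either strand.
Col8a2: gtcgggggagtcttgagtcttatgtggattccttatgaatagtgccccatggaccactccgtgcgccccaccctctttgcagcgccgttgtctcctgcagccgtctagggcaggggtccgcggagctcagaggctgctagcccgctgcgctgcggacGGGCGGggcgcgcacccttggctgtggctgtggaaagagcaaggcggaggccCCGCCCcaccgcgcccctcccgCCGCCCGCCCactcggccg
Col11a2: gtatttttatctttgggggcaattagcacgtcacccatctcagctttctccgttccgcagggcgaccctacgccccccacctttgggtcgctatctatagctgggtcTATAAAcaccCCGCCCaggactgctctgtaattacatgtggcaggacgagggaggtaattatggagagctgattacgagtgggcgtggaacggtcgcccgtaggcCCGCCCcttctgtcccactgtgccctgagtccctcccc
Col13a1: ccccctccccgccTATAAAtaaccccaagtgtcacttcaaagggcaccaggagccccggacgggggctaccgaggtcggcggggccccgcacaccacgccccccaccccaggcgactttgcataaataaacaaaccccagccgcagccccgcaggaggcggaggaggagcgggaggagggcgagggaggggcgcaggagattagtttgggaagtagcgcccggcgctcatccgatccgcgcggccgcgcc
Col23a1: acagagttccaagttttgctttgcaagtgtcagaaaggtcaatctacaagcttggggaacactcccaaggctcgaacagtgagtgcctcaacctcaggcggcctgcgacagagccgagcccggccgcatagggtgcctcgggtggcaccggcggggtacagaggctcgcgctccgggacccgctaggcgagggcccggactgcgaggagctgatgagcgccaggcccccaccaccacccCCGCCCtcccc

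The letters GGGCGG stood in 3 of these 4 runs, 4 times before *Col8a2*, where 2 of the 4 overlap, TATAAA before *Col11a2* and *Col13a1*, and CCAAT in none. The window of *Col19a1*, another of the 6, held none of these motifs. RefSeq windows from 250 bases before to 50 bases after the start were at hand for 35 of the 44 collagen genes, as 38 windows. Over those windows GGGCGG was present in 60.5% (35.7% of the windows of all genes), CCAAT in 34.2% (37.4%) and TATAAA in 13.2% (13.6%).

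The remaining collagen genes tested had overlapping genotypes. The multiplexins *Col15a1*, a basement membrane zone chain that stabilises muscle, and *Col18a1*, the parent of endostatin, had log2 fold changes of -0.43 and -0.34. *Col15a1* was at 40.2, 40.8 and 45.6 FPKM in WT mice and at 39.2, 44.8 and 17.3 FPKM in *HrasG12V* mice. *Col18a1* was at 5.39, 7.48 and 6.95 FPKM in WT mice and at 4.51, 8.21 and 3.68 FPKM in *HrasG12V* mice. Both were lowest in mouse 2279, and without it the log2 fold changes were -0.0085 and -0.10. *Col26a1* was at 1.76, 4.53 and 2.89 FPKM in WT mice and at 4.03, 3.75 and 2.11 FPKM in *HrasG12V* mice. *Col28a1* was at 1.24, 1.60 and 1.28 FPKM in WT mice and at 0.626, 2.43 and 2.47 FPKM in *HrasG12V* mice. The mutants spanned both sides of the WT values for *Col28a1* and lay within them for *Col26a1*. *Col6a6*, *Col26a1* and *Col28a1* had log2 fold changes of -0.36, 0.15 and 0.20. Below the filter were 9 genes, namely *Col4a6*, *Col6a4*, *Col6a5*, *Col9a1*, *Col9a2*, *Col9a3*, *Col10a1*, *Col17a1* and *Col25a1*. *Col10a1*, the marker of hypertrophic cartilage, had at most 0.0576 FPKM, and the 3 type IX chains of cartilage had at most 0.454 FPKM in any mouse.

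Set side by side, the structural classes had different medians, which are given as descriptions because the genes that passed the filter are not all members. The median log2 fold change was -0.75 over 11 fibrillar genes, -0.36 over 5 basement membrane genes, -0.52 over 6 FACIT genes and -0.58 over 4 beaded filament genes. Without mouse 2278 these medians were -1.41, -0.50, -0.996 and -0.97. With all mice it was -1.35 over the 2 short-chain genes, -0.39 over the 2 multiplexins (-0.68 without 2278) and 1.08 over the 2 transmembrane genes. With an unadjusted limma p below 0.05, 3 of 11 fibrillar, 1 of 5 basement membrane, 2 of 6 FACIT and 1 of 2 short-chain genes were lower, and no beaded filament gene was, where 4.99% of all genes tested were lower. Of the 8 cartilage types 4 were tested, and *Col2a1*, *Col11a1* and *Col11a2* were lower. The median log2 fold change of those 4 was -1.70, against -0.40 in the 31 other collagen genes tested, of which 4 were lower and 3 higher, *Col19a1* included (5.18% of all genes tested were higher). The difference between classes was not tested.

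**Figure D3:**
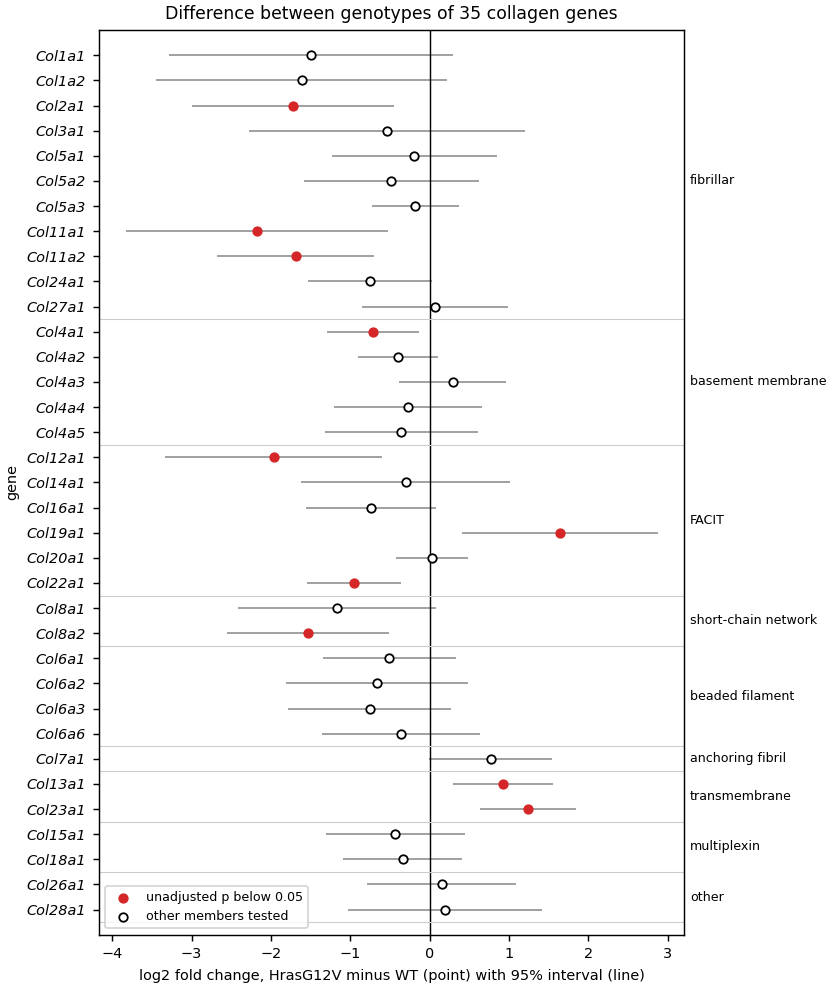
The log2 fold change of each of the 35 collagen genes tested (horizontal axis, *HrasG12V* minus WT) is a point and its 95% interval a line, with genes grouped by structural class. Red points, with an unadjusted limma p below 0.05, number 7 to the left of 0 and 3 to the right.

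The 3 *HrasG12V* mice did not share 1 collagen level. Mouse 2276 lay below all 3 WT mice for 28 of 35 genes, mouse 2279 for 26 and mouse 2278 for 9, where the shares over all genes tested were 38.0%, 41.6% and 44.9%. Mouse 2278 was above all WT mice for 15 genes, 2276 for 4 and 2279 for 7, where the shares over all genes tested were 31.7%, 43.1% and 33.7%. The median of the 35 genes, relative to the WT mean, was -0.90 in 2276, 0.17 in 2278 and -0.90 in 2279 on the log2 scale, and it was -0.27, 0.21 and 0.05 in WT mice 2277, 2280 and 2281. The summed collagen FPKM was 2312, 4974 and 2971 in WT mice and 999.8, 3786 and 959 in *HrasG12V* mice, so 2278 was above 2 of the 3 WT mice. The spread was also wider among the mutants, since the highest mouse was a median of 2.47 times the lowest over the 35 genes, against 1.40 times among WT mice. The same measure was not computed over all genes tested, so the wider spread is not called particular to collagens.

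Mouse 2278 was the highest mutant for 27 of the 35 genes, so leaving it out was bound to lower the mutant values. The counts and p-values of that set describe the other mutants and are no support for a genotype difference. With mouse 2278 left out, 22 of the 35 genes were lower and 4 higher, *Col19a1* included, at an unadjusted limma p below 0.05. The shares of all genes tested were 5.59% and 4.09%. Both remaining mutants lay below every WT mouse for 26 genes (15.6% of all genes tested) and above for 4 (13.7%). The lower genes were then 9 of 11 fibrillar, 4 of 4 beaded filament, 4 of 6 FACIT, 3 of 5 basement membrane, 1 of 2 short-chain and 1 of 2 multiplexin genes. *Col1a1* had a log2 fold change of -2.26 (SE 0.54, limma unadjusted p = 0.00882), and *Col3a1* of -1.41 (SE 0.26). No collagen gene passed the adjustment in that set of mice either. The number of lower genes was 3 without WT mouse 2280 (2.43% of all genes tested) and 4 without *HrasG12V* mouse 2279 (6.71%). Without *HrasG12V* mouse 2276, 6 collagen genes were lower and 4 higher (11.4%, against 12.4% of all genes tested), so neither share was above that of all genes. With array weights, 5 were lower (14.3%) against 12.3% of all genes. Without 2276 the lower genes numbered 2322 among all genes tested, against 666 with all mice, and 6 against 7 among the collagens. *Col8a2*, *Col11a2* and *Col22a1* on the lower side and *Col13a1* and *Col23a1* on the higher side had an unadjusted limma p below 0.05 in all 6 sets of 5 mice. So did *Col19a1*, which is given as a value and not as support because of how it passed the filter. *Col2a1* and *Col11a1* were not past that limit without 2276, 2279 or 2280, *Col4a1* without 2277, 2279 or 2280, and *Col12a1* without 2280. Without moderation *Col2a1*, *Col11a1* and *Col12a1*, with array weights *Col2a1*, *Col8a2* and *Col11a1*, and after scaling to the same total *Col19a1* were no longer past it (limma unadjusted p up to 0.0676). Without mouse 2276, *Col19a1* and *Col23a1* also passed the adjustment, together with *Col28a1*, in a fit in which 9.66% of all genes did.

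Ratios between chains do not depend on the scaling of a library. The ratio of *Col1a1* to *Col1a2*, which join in 1 molecule, was 1.17 to 1.24 in WT and 1.23 to 1.39 in *HrasG12V* mice. The levels of these genes differed between mice far more than their ratio. The ratio of *Col4a1* to *Col4a2* was 1.62, 1.64 and 1.62 in WT mice and 1.10, 1.47 and 1.38 in *HrasG12V* mice. It was nearly constant in WT mice and lower in every mutant. The ratio of *Col12a1* to *Col14a1* was 0.757, 1.38 and 1.07 in WT mice and 0.232, 0.278 and 0.484 in *HrasG12V* mice, again lower in every mutant, 2278 included. *Col5a1* relative to *Col1a1* was 0.0391, 0.0152 and 0.0289 in WT mice and 0.108, 0.0430 and 0.0546 in *HrasG12V* mice. The last ratio was the 1 of 10 computed that was higher in every mutant, 2 were lower and 7 overlapped. Ratios of other gene pairs were not computed, so these counts have no share to be read against and are a description. *Col6a1* to *Col6a2* was 1.17 to 1.18 in WT mice and 1.10, 1.14 and 1.81 in *HrasG12V* mice, with 2279 standing apart.

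**Figure D4:**
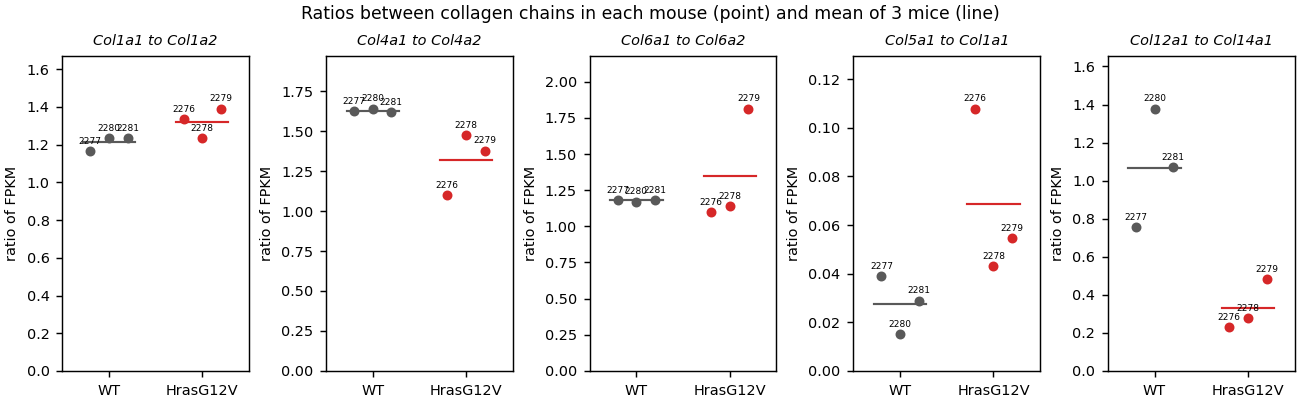
Each panel gives the ratio of the FPKM of 2 collagen genes on an axis from 0, with 1 point per mouse and a line at the mean of 3 mice. The ratios of *Col4a1* to *Col4a2* and of *Col12a1* to *Col14a1* are lower, and that of *Col5a1* to *Col1a1* higher, in each *HrasG12V* mouse than in any WT mouse.

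For genes that make, process and bind collagen, the counts past the unadjusted limit are to be read against 4.99% lower and 5.18% higher of all genes tested. Of 17 enzymes and chaperones that modify and fold procollagen, *Colgalt2*, which adds galactose to hydroxylysine, was lower (log2 fold change -0.45, SE 0.17, limma unadjusted p = 0.0387) and none was higher, with a median log2 fold change of -0.28. Of 12 genes that trim procollagen or crosslink fibrils, none passed an unadjusted p of 0.05 in either direction, and the median was -0.43. Of 8 collagen receptors, among them the integrin chain *Itga1* and the kinases *Ddr1* and *Ddr2*, none passed, and the median was -0.46. Of 11 partners of type IV collagen in the basement membrane, *Hspg2*, the gene of perlecan, was lower (log2 fold change -0.45, SE 0.18, limma unadjusted p = 0.0394), and the median was -0.31. None of these genes had an adjusted limma p below 0.48.

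Markers of the cells that make collagens, and of other cell types, were measured in the same libraries. Their counts past the unadjusted limit are also to be read against 4.99% lower and 5.18% higher of all genes tested. Of 7 tenocyte markers 6 were lower at an unadjusted limma p below 0.05, and their summed level was 288 to 593 FPKM in WT and 101.7 to 216 FPKM in *HrasG12V* mice, without overlap. *Kera*, the tendon and cornea proteoglycan keratocan, was at 30.5, 60.5 and 76.4 FPKM in WT mice and at 8.96, 19.0 and 7.93 FPKM in *HrasG12V* mice (log2 fold change -2.22, SE 0.46, limma adjusted p = 0.318). *Comp*, a tendon and cartilage matrix protein, and *Tnmd*, a marker of mature tenocytes, had log2 fold changes of -1.84 and -1.88. The transcription factor *Scx*, which specifies tendon, was the exception, with a log2 fold change of 0.06. Of 8 chondrocyte markers 2 were tested, *Matn1* was listed at 0 in 5 libraries, *Snorc* was listed at 0 in all 6, and *Acan* was at most 0.653 FPKM. Of those 2, *Chad*, which tendon also expresses, was lower (log2 fold change -1.89, SE 0.59, limma unadjusted p = 0.0162). Of 6 osteoblast markers 2 were tested and neither passed, and *Ibsp* was listed at 0 in all libraries.

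None of the 8 fibroblast markers passed an unadjusted p of 0.05. Their summed level was 759 to 849 FPKM in WT mice and 665, 909.5 and 682 FPKM in *HrasG12V* mice 2276, 2278 and 2279, an order of mutants in which 2278 was again the highest. Of 6 endothelial markers *Cdh5*, the cadherin of vessels, was lower (log2 fold change -0.66, SE 0.17, limma unadjusted p = 0.00782), and the summed level was 145 to 180.4 FPKM in WT and 128 to 135 FPKM in *HrasG12V* mice. Of 5 Schwann cell markers *Pmp22*, a protein of peripheral myelin, was higher (log2 fold change 0.99, SE 0.38, limma unadjusted p = 0.0368), and the summed level was 135 to 372 FPKM in WT and 228 to 619 FPKM in *HrasG12V* mice. The summed level of 7 B and T cell markers was 1.15 to 1.54 FPKM in WT mice and 2.07, 85.5 and 75.6 FPKM in *HrasG12V* mice 2276, 2278 and 2279. Of the myofiber markers, *Ckm* was listed at 0 in all libraries but that of 2278, *Tnnt3* in 2276 and *Myh1* in WT mice 2277 and 2280. Such zeros can be failed estimates, so the sum of that list and its tests do not measure myofiber RNA and are not read. The part of these cell types in the collagen differences was not tested.

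**Figure D5:**
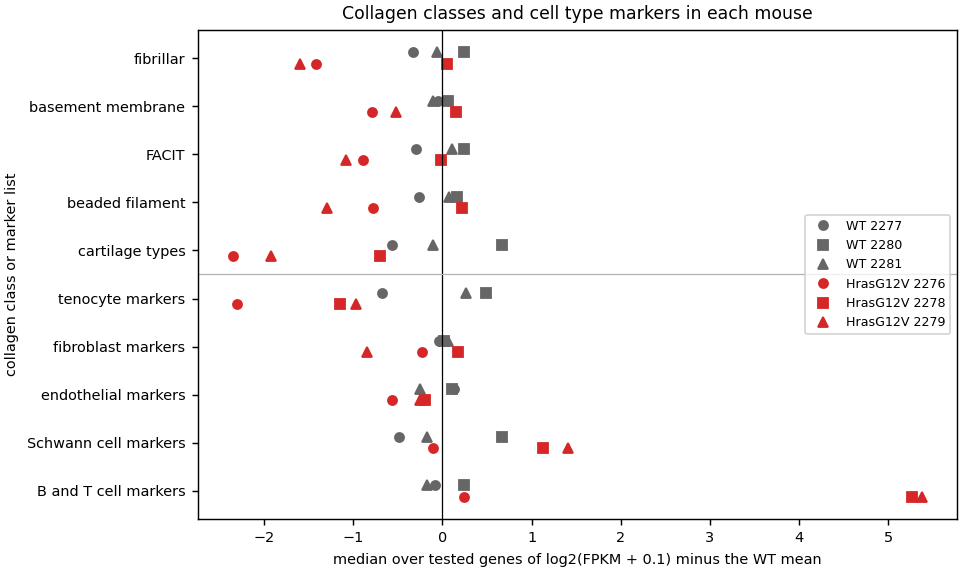
Each point is the median over the tested genes of a collagen class (above the line) or marker list (below it) in 1 mouse, as log2(FPKM + 0.1) minus the WT mean. *HrasG12V* mouse 2278 lies within the WT range for fibrillar and FACIT genes, just above it for basement membrane and beaded filament genes, and below every WT mouse for cartilage types and tenocyte markers.

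Over the 6 libraries the gene most like *Col1a1* in log2(FPKM + 0.1) was *Col1a2* (Pearson's r = 0.999). Next came *Pid1*, *4930507D05Rik*, *Ctsk* and *Pcdhgb6*, with r from 0.987 to 0.996. These values describe 6 points that share 2 genotypes and a scaling, and the 5 genes were the highest of 13359.

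Several collagen genes are neighbours in the genome. *Col3a1* and *Col5a2* lie 24615 bases apart on chromosome 1 on opposite strands, and both had 2278 above and the other mutants below the WT range. *Col6a1* and *Col6a2* lie 85162 bases apart on chromosome 10 in GENCODE vM21 and had log2 fold changes of -0.51 and -0.66. *Col19a1*, which was higher, lies 9206 bases from *Col9a1*, which was at most 0.228 FPKM in every mouse. *Col4a3* and *Col4a4*, a head-to-head pair like *Col4a1* and *Col4a2*, start 72 bases apart, and their log2 fold changes of 0.29 and -0.27 were on opposite sides of 0.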

How the data were processed

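A stranded mRNA kit and single-end sequencing gave 1 library for each of 6 gastrocnemius muscles. The submitters' processing notes name bcl2fastq, TopHat, Cufflinks, Cuffnorm and the builds GRCm38 and mm10, and the sources used here give neither annotation nor versions. The authors deposited FPKM, 1 value per symbol and library, scaled between libraries by Cuffnorm. Low values showed no whole-read steps (between any pair, the fullest interval of 0.02 in log2 ratio held 0.766% to 4.68% of low genes), so no count model was used, and beyond the nominal depth in the methods the reads behind each value are unknown. The genotype comparison used R 4.3.3 and limma 3.58.1 (log2(FPKM + 0.1), mean FPKM of at least 0.5, empirical Bayes with a trend, no covariate) and Benjamini-Hochberg adjustment over 13359 genes. A fold change on this scale understates the change of low genes. The p-values set each difference against the spread between mice, moderated by the spread of other genes.

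The collagen genes, classes, 12 gene lists and tests were chosen with earlier results of these data known. Values per mouse are given for members with an unadjusted p below 0.05 or genotypes that did not overlap, the 2 most abundant of each class, and *Col1a1*, *Col1a2*, *Col3a1*, *Col4a1*, *Col4a2*, *Col6a1*, *Col6a2*, *Col6a3*, *Col2a1*, *Col11a2* and *Col24a1*. From other lists at most 3 genes a direction were taken, by lowest unadjusted p, and those at 0, *Tnnt3*, *Myh1*, *Scx*, *Acan*, *Mylpf*, *Ttn* and the receptors were named after their values were seen. *Col21a1* was on the FACIT list and has no value here. Gene positions came from GENCODE vM21 and start sites and sequences from RefSeq (GRCm38.p6). Alternatives were pseudocounts of 1 and 0.01, no filter or a mean of at least 1, quantile normalization, median centring, equal totals, no or robust moderation, array weights, removal of a length trend and leaving out each mouse. The fit was tested on simulated data. Other software was matplotlib 3.10.9, numpy 2.4.6, pandas 2.3.3 and Python 3.11.15.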

Additional observations from a re-analysis of the deposited data

How the results depend on the processing

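The median of the collagen genes tested stayed negative under all 11 alternatives, from -0.49 to -0.16, and over the 6 sets of 5 mice, from -0.84 to -0.22. The number of lower genes was 4 without moderation (5.71% of all genes tested) and 3 to 22 with 1 mouse left out (2.32% to 17.4% of all genes), and that of higher genes 3 to 4 (2.22% to 12.4%). Without 2276 neither count was above the share of all genes. The number without overlap was 6 after scaling to the same total FPKM (11.8% of all genes tested) and 12 to 30 with 1 mouse left out, where the share of all genes was 22.8% to 48.2%, against 18.5% with all 6 mice. It was 85.7% of the collagens against 29.3% of all genes without 2278, 42.9% against 48.2% without 2276 and 34.3% against 30.7% without 2279. With array weights 2 genes (*Col19a1* and *Col23a1*) passed the adjustment, in a fit in which 4.28% of all genes did, and 0 to 3 did with 1 mouse left out. Of 592 refitted values of 35 genes 525 kept their direction and side of the threshold, 20 were no longer past it, 25 came past it, and 22 turned direction, none of them of a gene with an unadjusted p below 0.05. With array weights log2 fold changes turned to 0.12 for *Col14a1*, -0.0591 for *Col20a1*, 0.0014 for *Col4a4*, 0.0604 for *Col4a5*, 0.0037 for *Col5a1* and 0.018 for *Col6a6*, and by quantiles to -0.0697 for *Col20a1* and -0.0516 for *Col27a1*. With 1 mouse left out the range was -0.99 to 0.0626 for *Col14a1*, -0.0836 to 0.16 for *Col20a1*, -0.18 to 0.47 for *Col26a1*, -0.16 to 0.44 for *Col27a1*, -0.11 to 0.80 for *Col28a1*, -0.79 to 0.0013 for *Col4a5*, -0.68 to 0.21 for *Col5a1* and -0.38 to 0.0033 for *Col5a3*. The cause was not tested. No analysis paired by litter was possible because the litter of each mouse is not given. Without read counts, the counting error of low FPKM is unknown.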
